A study of Mus musculus with 16 samples.

Results

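The genes described are 9 members of the CC chemokine system that draws monocytes into tissue. They comprise 7 secreted chemokines (Ccl2, Ccl3, Ccl4, Ccl5, Ccl7, Ccl8 and Ccl12) and 2 receptors (Ccr1 and Ccr2). They were taken by symbol from a table of 55359 genes, and all 9 were found and passed the expression filter that kept 20953 genes. Their messenger RNA was measured by RNA sequencing of periodontal ligament, the fibrous tissue between tooth root and jaw bone, from wild-type (WT) male C57BL/6J mice aged 9 weeks at treatment. The 16 libraries form 4 groups of 4. The ligature plus trauma group (LiTra) received both treatments. The ligature group (Li) had a silk thread tied round the second upper left molar, which collects plaque and brings on periodontitis. The trauma group (Tra) had composite resin built up on the chewing surface of the same tooth, which overloads it when the mouse bites (traumatic occlusion). The control group (Co) was left without treatment. The labels give neither the time between treatment and sampling nor whether a library came from 1 mouse or a pool. P-values below thus reflect how much these libraries varied, and part of that variation may be technical.

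CC chemokines are small secreted proteins that bind G protein-coupled receptors on leukocytes and set the direction in which those cells crawl. Ccl2, Ccl7 and, in mice, Ccl12 act on Ccr2, the receptor that lets classical monocytes leave the bone marrow and enter inflamed tissue. Ccl3 and Ccl5 act on Ccr1, and Ccl4 is a close relative of Ccl3. Mouse Ccl8 is known as a ligand of Ccr8. In periodontitis, monocytes that enter the tissue around the tooth supply macrophages and the precursors of osteoclasts, the cells that resorb bone. Ccr1 is carried by monocytes, neutrophils and osteoclast precursors.

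Ligament genes were abundant in every group. Postn, the matrix protein periostin, averaged 21304 ± 4639 CPM (read counts relative to the scaled library total) in LiTra, 14999 ± 5720 in Li, 19199 ± 9068 in Tra and 21049 ± 11314 in Co (SD, n = 4 each). Total counts per library ran from 58458102 to 77468584, and each of the 9 genes had at least 35 reads in every library, so the spread between libraries rather than counting error sets the precision. The libraries Li 2, LiTra 2 and LiTra 3 stand apart: short transcripts take a larger part of their counts. The Spearman correlation over genes (which are no independent replicates) of centred log2 CPM with transcript length was -0.404, -0.321 and -0.34 in them, against -0.17 to 0.298 in the other 13 libraries. The chemokine transcripts are short (511 to 1096 bases), whereas those of Ccr1 (2833 bases) and Ccr2 (5728 bases) are longer. For every one of the chemokines, Li 2 was the highest Li library, and LiTra 2 and LiTra 3 were the highest of LiTra. Results are therefore also given for the 13 remaining libraries. Among those 13, the correlation was 0.092 to 0.298 in Co and -0.17 to 0.097 in Tra. Leaving out the shifted libraries thus does not even out this difference between Tra and Co.

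The 7 chemokine genes lie on mouse chromosome 11 and the 2 receptor genes on chromosome 9. Promoter sequence was at hand for 5 of the 9 genes. Those of Ccl3, which rose with the ligature, and of Ccl8 and Ccl12, which did not pass the test in any comparison, are shown because these genes part company in the results. Each run is the 250 bases before the transcription start in RefSeq on GRCm38.p6, written 5′ to 3′ on the gene's own strand, with motif matches in capitals.
Ccl3 (chr11:83649379-83649628, minus strand): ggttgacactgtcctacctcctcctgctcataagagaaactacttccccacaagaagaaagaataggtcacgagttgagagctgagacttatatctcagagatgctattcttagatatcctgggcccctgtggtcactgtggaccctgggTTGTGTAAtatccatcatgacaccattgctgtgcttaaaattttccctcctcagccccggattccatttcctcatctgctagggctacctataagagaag
Ccl8 (chr11:82114935-82115184, plus strand): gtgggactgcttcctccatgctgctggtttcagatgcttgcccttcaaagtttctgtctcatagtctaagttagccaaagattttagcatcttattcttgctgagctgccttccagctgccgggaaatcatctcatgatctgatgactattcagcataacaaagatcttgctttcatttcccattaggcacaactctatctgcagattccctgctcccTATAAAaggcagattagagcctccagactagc
Ccl12 (chr11:82101595-82101844, plus strand): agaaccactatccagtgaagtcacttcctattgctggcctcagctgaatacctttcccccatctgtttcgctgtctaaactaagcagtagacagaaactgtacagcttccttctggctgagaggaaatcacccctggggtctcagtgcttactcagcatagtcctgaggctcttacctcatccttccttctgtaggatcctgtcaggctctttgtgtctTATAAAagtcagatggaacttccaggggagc
The search covered 300 bases per gene, including 50 after the start, on both strands. The TATA box letters TATAAA stood at positions -32 to -27 in Ccl8 and -31 to -26 in Ccl12, counted from the transcription start, and 13.6% of 32841 mouse promoters hold them. Ccl3 held TTGTGTAA at -100 to -93, a match to the C/EBP letters TTNNGNAA, which 40.7% of promoters hold. Such a match also stood in Ccr1, at -131 to -124, and in Ccr2, at -243 to -236, whose promoters are not shown. None of the 5 windows matched the kappa-B motif (4.51% of promoters), the AP-1 letters TGANTCA (7.81%) or the STAT letters TTCNNNGAA (8.3%). A match describes the letters only and shows no binding.

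The make-up of the group differed between tissue with a ligature and control tissue. Scaled by transcript length (CPM per kilobase), the chemokine with the highest mean level in Co was Ccl8, with 90.2 ± 50.8, followed by Ccl12 with 34.5 ± 8.91, Ccl7 with 12.2 ± 5.54, Ccl4 with 10.6 ± 6.32, Ccl3 with 5.35 ± 2.37, Ccl2 with 3.63 ± 0.443 and Ccl5 with 1.46 ± 0.988 CPM per kilobase (SD, n = 4). In LiTra the order began with Ccl4 at 237 ± 196, Ccl2 at 153 ± 68.7 and Ccl3 at 138 ± 109, then Ccl7 at 85.8 ± 33, Ccl8 at 64.3 ± 33.1 and Ccl12 at 32 ± 15.9, with Ccl5 again last at 5.9 ± 5.03 CPM per kilobase. The spreads of Ccl4, Ccl2, Ccl3 and Ccl7 in LiTra overlap, so their order among themselves is not resolved. Ccl2 came next to last in Co and stood among the leading genes with a ligature. In Tra the order of the means began as in Co, with Ccl8 at 138 ± 54.5, Ccl12 at 65.3 ± 43.8, Ccl7 at 44.4 ± 43.3 and Ccl4 at 43.2 ± 19.9 CPM per kilobase. Single libraries of Co and Tra departed from these orders. In Co 1, Ccl12 (44.7) exceeded Ccl8 (19.6). In Tra 1, Ccl4 (60) and Ccl3 (33.9) exceeded Ccl12 (24.5), and in Tra 2, Ccl7 (105) exceeded Ccl12 (75.1 CPM per kilobase).

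**Figure D1:**
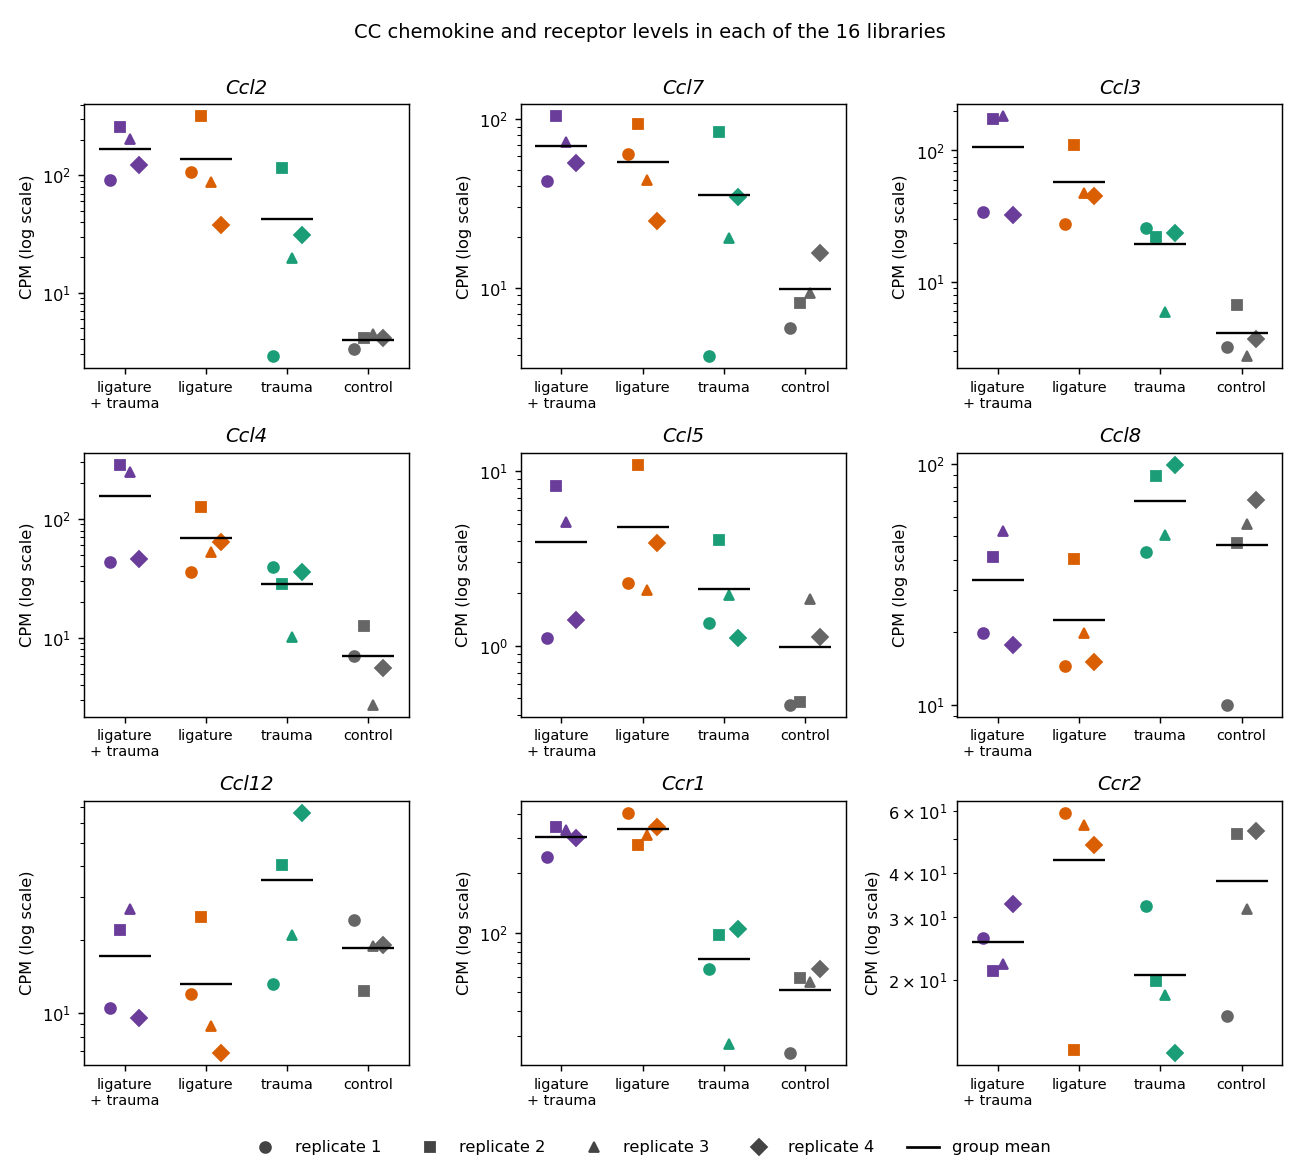
Level of each of the 9 genes in every library (CPM, log scale on the vertical axis), with groups from left to right ligature plus trauma, ligature, trauma and control. Symbols mark the replicate and black lines the group mean. Ccl2 lies at 37.6 CPM or more in all 8 libraries with a ligature and at 4.43 or less in all 4 controls, while Ccl8, Ccl12 and Ccr2 overlap between each treated group and the controls.

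Ccl2, the main attractant of classical monocytes, rose strongly with the ligature. It had 91.4, 256, 203 and 122 CPM in LiTra replicates 1 to 4, and 107, 319, 88.6 and 37.6 CPM in Li. Co had 3.29, 4.07, 4.43 and 4.12 CPM. The control libraries were tightly grouped and no library with a ligature came near them. The length-shifted libraries were the highest. The fitted log2 fold change was 5.40 ± 0.91 in LiTra against Co (SE; 42.2-fold, 95% interval 11.1 to 160; edgeR quasi-likelihood adjusted p = 0.00224) and 5.12 ± 0.90 in Li against Co (34.7-fold, 9.31 to 129; adjusted p = 0.00242). In the 13 libraries without length shift it was 4.74 (adjusted p = 0.0144) and 4.27 (adjusted p = 0.00875).

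Ccl7, a second ligand of Ccr2 whose gene neighbours Ccl2, had a similar order of groups but a smaller difference. It had 43.2, 104, 73.5 and 54.6 CPM in LiTra and 62.2, 93.3, 43.4 and 24.7 CPM in Li, against 5.74, 8.06, 9.28 and 16.1 CPM in Co. Each library with a ligature lay above all controls, although the lowest Li library and the highest control were close. The log2 fold change was 2.81 ± 0.67 in LiTra (edgeR adjusted p = 0.015) and 2.51 ± 0.66 in Li (adjusted p = 0.0244). In the 13 libraries the values were 2.32 (adjusted p = 0.12) and 2.13 (adjusted p = 0.0816), neither passing. The call in Li also ended without control 1, 2 or 3 or Li 1 or 2, with adjusted p from 0.0505 to 0.0724.

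Ccl12 and Ccl8, the remaining monocyte attractants of the same cluster, did not follow Ccl2. Ccl12, the third Ccr2 ligand, had 10.5, 22, 26.8 and 9.52 CPM in LiTra and 11.9, 24.8, 8.87 and 6.86 CPM in Li, against 24, 12.3, 18.9 and 18.9 CPM in Co. The groups overlapped, with log2 fold changes of -0.11 ± 0.49 in LiTra (95% interval -1.15 to 0.93; edgeR adjusted p = 0.906) and -0.50 ± 0.49 in Li (-1.54 to 0.54; adjusted p = 0.556). Ccl8 had 19.9, 41.1, 52.6 and 17.7 CPM in LiTra and 14.5, 40.4, 19.9 and 15 CPM in Li, against 10, 47.2, 56.3 and 70.9 CPM in Co. Control 1 was the lowest of all 16 libraries for Ccl8, and the other 3 controls lay above all 4 Li libraries. Its log2 fold changes were -0.49 ± 0.51 in LiTra (-1.58 to 0.60; edgeR adjusted p = 0.552) and -1.04 ± 0.52 in Li (-2.14 to 0.06; adjusted p = 0.211). With each library's trend on transcript length removed, a correction chosen after seeing the data, Ccl8 passed as lower in both, by -1.28 (adjusted p = 0.0448) and -1.56 (adjusted p = 0.018). The intervals of Ccl12 leave out changes of the size of that of Ccl2. Ccr8, the mouse receptor of Ccl8, did not pass the expression filter and had at most 30 reads in any library.

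Ccl3 and Ccl4, neighbouring genes for the macrophage inflammatory proteins, rose together. Ccl3 had 34.1, 174, 181 and 32.4 CPM in LiTra and 27.9, 110, 47.6 and 45.4 CPM in Li, against 3.19, 6.75, 2.74 and 3.69 CPM in Co. Ccl4 had 43.8, 286, 250 and 46.2 CPM in LiTra and 35.5, 127, 52.7 and 63.7 CPM in Li, against 7.09, 12.7, 2.74 and 5.6 CPM in Co. For both genes the libraries with a ligature stood clear of the controls, and the 3 highest libraries were the length-shifted ones. The log2 fold change of Ccl3 was 4.69 ± 0.69 in LiTra (25.7-fold, 9.32 to 71.1; edgeR adjusted p = 0.00107) and 3.82 ± 0.66 in Li (14.1-fold, 5.32 to 37.4; adjusted p = 0.00232). That of Ccl4 was 4.48 ± 0.72 in LiTra (edgeR adjusted p = 0.00172) and 3.31 ± 0.69 in Li (adjusted p = 0.00645). Without the shifted libraries both still passed, with smaller changes in LiTra: 3.02 for Ccl3 (adjusted p = 0.00689) and 2.67 for Ccl4 (adjusted p = 0.017). In Li they were 3.28 and 2.83. The ratio of Ccl4 to Ccl3 counts lay between 1 and 2.22 in all 16 libraries. The strand setting of the counting is not given in the sources used here, and sharing of reads between the pair was not tested.

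Ccl5, a chemokine made mainly by T and NK cells and also by macrophages, was the lowest of the 9. It had 1.1, 8.18, 5.09 and 1.4 CPM in LiTra and 2.29, 10.9, 2.09 and 3.85 CPM in Li, against 0.459, 0.477, 1.85 and 1.12 CPM in Co. All 4 Li libraries lay above all controls, whereas LiTra 1 and LiTra 4 lay within the control range. The log2 fold changes of 2.01 ± 0.74 in LiTra (edgeR adjusted p = 0.0825) and 2.28 ± 0.75 in Li (adjusted p = 0.0602) did not pass, although DESeq2 called both (adjusted p = 0.0305 and 0.012). Without the length-shifted libraries the value in LiTra was 0.35 (edgeR adjusted p = 0.839). T and NK cell markers were scarce. Of 12 such genes, 10 were tested and 1 (Trac) rose in Li (0 in the 13 libraries), and none passed in LiTra (1 at an unadjusted p under 0.05, 0 by DESeq2). Among all genes, 5.88% were called higher in Li and 6.83% in LiTra. The 12 summed to 7.59 to 20.3 CPM in LiTra, 8.89 to 22.3 in Li, 10.8 to 18.3 in Tra and 6.99 to 12.6 in Co, and Cd3e was at 0 in at least 1 library of each of LiTra, Li and Co.

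The receptors differed from each other. Ccr1 had 241, 344, 329 and 303 CPM in LiTra and 402, 279, 311 and 344 CPM in Li, against 24.7, 59.3, 56.4 and 65.6 CPM in Co. It had the narrowest spread of the genes that rose, with a wide gap between the libraries with and without a ligature. The log2 fold change was 2.56 ± 0.37 in LiTra (5.91-fold, 3.43 to 10.2; edgeR adjusted p = 0.000995) and 2.70 ± 0.37 in Li (6.48-fold, 3.75 to 11.2; adjusted p = 0.000553), and it passed in all 25 alternatives tried in each of these comparisons. Ccr2, the receptor of Ccl2, Ccl7 and Ccl12, had 26.2, 21.2, 22.1 and 32.7 CPM in LiTra and 59.2, 12.7, 54.9 and 48 CPM in Li, against 15.8, 51.9, 31.8 and 52.9 CPM in Co. Its groups overlapped throughout, and the lowest Li value was that of the length-shifted library. The log2 fold change was -0.58 ± 0.44 in LiTra (95% interval -1.50 to 0.35; edgeR adjusted p = 0.392) and 0.20 ± 0.43 in Li (-0.72 to 1.12; adjusted p = 0.816). The ratio of Ccr1 to Ccr2 counts was 9.2, 16.3, 14.9 and 9.25 in LiTra, 6.79, 22, 5.67 and 7.16 in Li, 2.04, 4.94, 1.51 and 8.46 in Tra and 1.56, 1.14, 1.78 and 1.24 in Co. Tissue was sequenced in bulk, so more cells that carry a gene and more RNA per cell cannot be told apart.

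**Figure D2:**
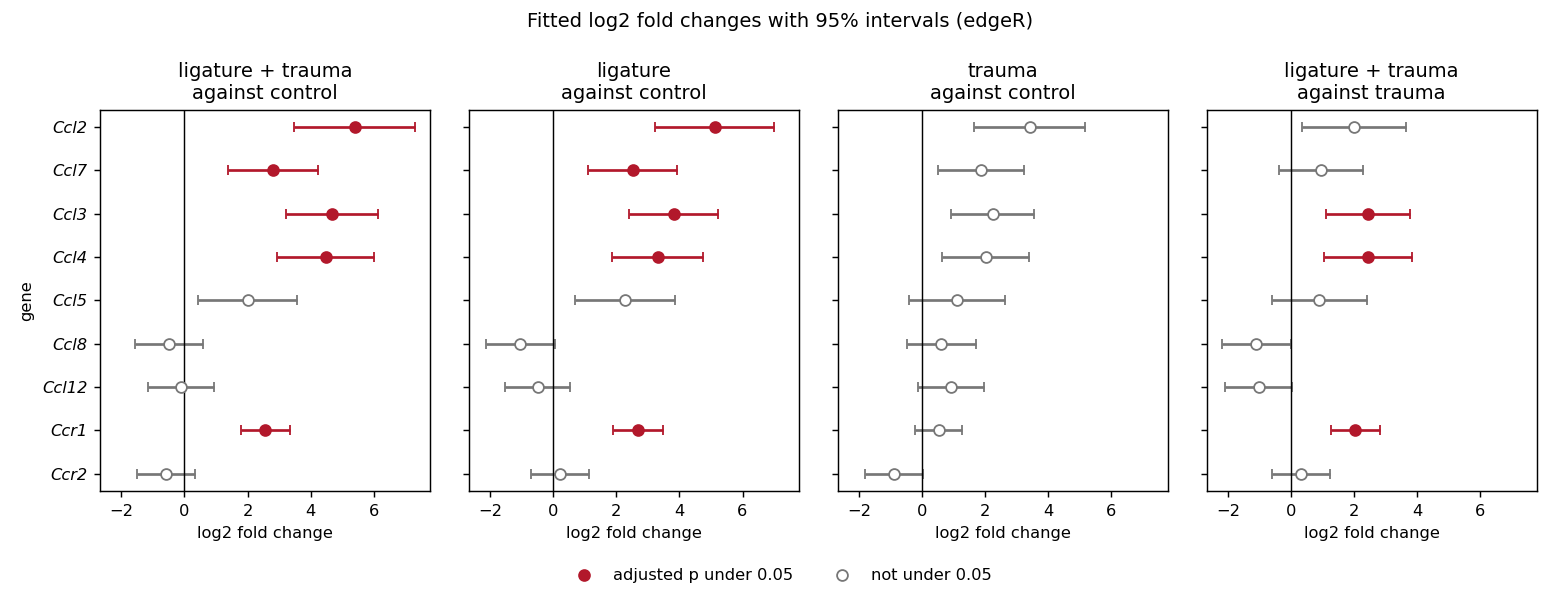
Fitted log2 fold changes of the 9 genes (horizontal axis) with 95% intervals in 4 comparisons, from left ligature plus trauma, ligature and trauma, each against control, and ligature plus trauma against trauma. Filled red points have an edgeR adjusted p under 0.05 over all genes: 5, 5, 0 and 3 of the 9 genes.

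In all, 5 of the 9 genes rose in LiTra against Co, where 12.5% of all 20953 genes tested were called and 6.83% were called higher. The same 5 genes, Ccl2, Ccl3, Ccl4, Ccl7 and Ccr1, rose in Li against Co, where 10.7% of all genes were called and 5.88% were called higher. No member was called lower in either comparison, where 5.62% and 4.78% of all genes were called lower in LiTra and in Li. The groups did not overlap for 5 members in LiTra, all higher (background 10.8% of genes higher and 10.4% lower), and for 6 in Li, all higher (background 9.97%). The median log2 fold change of the 9 was 2.56 in LiTra, against -0.08 for all genes, and 2.51 in Li, against -0.05 for all genes. Both comparisons use the same 4 control libraries, so they are not independent of each other. The number of genes called in all depended on single libraries: it was 2609 in LiTra against Co and ranged from 1022 (without LiTra 3) to 4332 (without Li 2) with 1 library left out, with 1101 without LiTra 2 and 1316 to 1560 without control 1, 2 or 4. In Li against Co it was 2234 and ranged from 1430 to 2125, lowest without Li 1 or control 1 or 2.

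Trauma alone gave higher values for most members, with libraries that disagreed. Ccl2 had 2.87, 115, 19.7 and 31 CPM in Tra replicates 1 to 4, against 3.29 to 4.43 CPM in Co. Ccl7 had 3.92, 84, 19.7 and 34.6 CPM in Tra, against 5.74 to 16.1 CPM in Co. For both genes Tra 1 lay below every control and the other 3 trauma libraries above them, with Tra 2 highest. Ccl3 had 26, 21.9, 5.94 and 23.5 CPM and Ccl4 had 39.6, 28.2, 10.2 and 36.1 CPM in Tra, so that here Tra 1 was the highest library and Tra 3 the lowest. Ccl8 had 42.9, 89.1, 50.6 and 99.3 CPM and Ccl12 had 13.2, 40.3, 20.9 and 65.9 CPM, both highest in Tra 4. Ccl5 had 1.34, 4.03, 1.96 and 1.11 CPM in Tra, and Ccr1 had 65.7, 97.7, 27.4 and 105 CPM. Ccr2 had 32.3, 19.8, 18.1 and 12.4 CPM, 3 of them below 3 of the 4 controls. Ccl2, Ccl5 and Ccl7 thus peaked in Tra 2, Ccl3 and Ccl4 in Tra 1 and Ccl8 and Ccl12 in Tra 4, an order seen in the values and not tested.

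By edgeR, 0 of the 9 genes passed in Tra against Co, where 0.00477% of all genes (1 of 20953) were called. At an unadjusted p under 0.05 there were 4 members, Ccl2, Ccl3, Ccl4 and Ccl7, and 1450 genes in all. DESeq2 called 2 members, Ccl2 (adjusted p = 0.00112) and Ccl3 (adjusted p = 0.0307), among 114 genes. The edgeR log2 fold changes were positive for 8 of the 9, with a median of 1.11 against 0.01 for all genes. The largest was that of Ccl2, 3.40 ± 0.83 (95% interval 1.65 to 5.16; edgeR adjusted p = 0.418), and the negative one that of Ccr2, -0.88 ± 0.44 (-1.81 to 0.04; adjusted p = 0.729). No member had groups that did not overlap (background 3.65% of genes higher). The intervals are wide, and a p that misses the threshold does not show that trauma left these genes as they were. With the trend on transcript length removed, a correction chosen after seeing the data, each chemokine had a smaller log2 fold change in Tra. Ccl12 had 0.45 in place of 0.92 and Ccl8 0.26 in place of 0.61. Ccl2 then had 3.14, Ccl3 1.90, Ccl4 1.62, Ccl7 1.51 and Ccl5 0.79, and none passed.

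Adding trauma to a ligature moved no member past the test. Between LiTra and Li 0 of the 9 genes were called, as were 0% of all genes. At an unadjusted p under 0.05 edgeR had 0 members and 734 genes, and DESeq2 called 31 genes and no member. The log2 fold changes lay between -0.78 ± 0.44 (Ccr2; 95% interval -1.70 to 0.15) and 1.17 ± 0.63 (Ccl4; -0.17 to 2.51). The higher means of Ccl3 and Ccl4 in LiTra rest on LiTra 2 and LiTra 3: in the 13 libraries their log2 fold changes were -0.27 and -0.16, in place of 0.87 and 1.17.

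Adding a ligature to an overloaded tooth raised 3 of the 9 genes. In LiTra against Tra, 5.48% of all genes were called, 2.21% higher and 3.27% lower. That is 1149 genes, and 565 to 714 without LiTra 2, 3 or 4 or Tra 1 or 3. The same 3 members did not overlap between the groups (background 5.74% higher and 7.31% lower). Ccr1 rose by 2.04 ± 0.36 on the log2 scale (4.12-fold, 2.42 to 7.01; edgeR adjusted p = 0.00548). Ccl3 rose by 2.45 ± 0.62 (edgeR adjusted p = 0.0309) and Ccl4 by 2.45 ± 0.66 (adjusted p = 0.0395). The call of Ccr1 held in the 13 libraries (1.88; adjusted p = 0.0485), but Ccl3 and Ccl4 then had log2 fold changes of 0.78 (adjusted p = 0.483) and 0.66 (adjusted p = 0.621). Both calls also ended when any 1 of the 4 trauma libraries, LiTra 2 or LiTra 3 was left out, with adjusted p from 0.0566 to 0.126, and that of Ccl4 ended without Li 3 or Li 4 (adjusted p = 0.0508). Ccl2 was at 2.00 ± 0.78 (adjusted p = 0.161), its trauma libraries spanning the range of the controls up to that of the ligature libraries. Without Tra 2 its log2 fold change was 3.23 (adjusted p = 0.0295).

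The effect of trauma with the ligature was also compared with its effect without it, as an interaction on the log2 scale. By edgeR no member was called and 0% of all genes were, with 1 member (Ccl2) and 1032 genes at an unadjusted p under 0.05, and DESeq2 called 51 genes. In the 13 libraries edgeR had 4 of the 7 chemokines, neither receptor and 1376 genes at an unadjusted p under 0.05, and no member was called. The interaction of Ccl2 was -3.12 ± 1.09 (95% interval -5.43 to -0.81; edgeR adjusted p = 0.969). It was negative for 8 of the 9 genes, with a median of -0.85 against -0.02 for all genes.

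**Figure D3:**
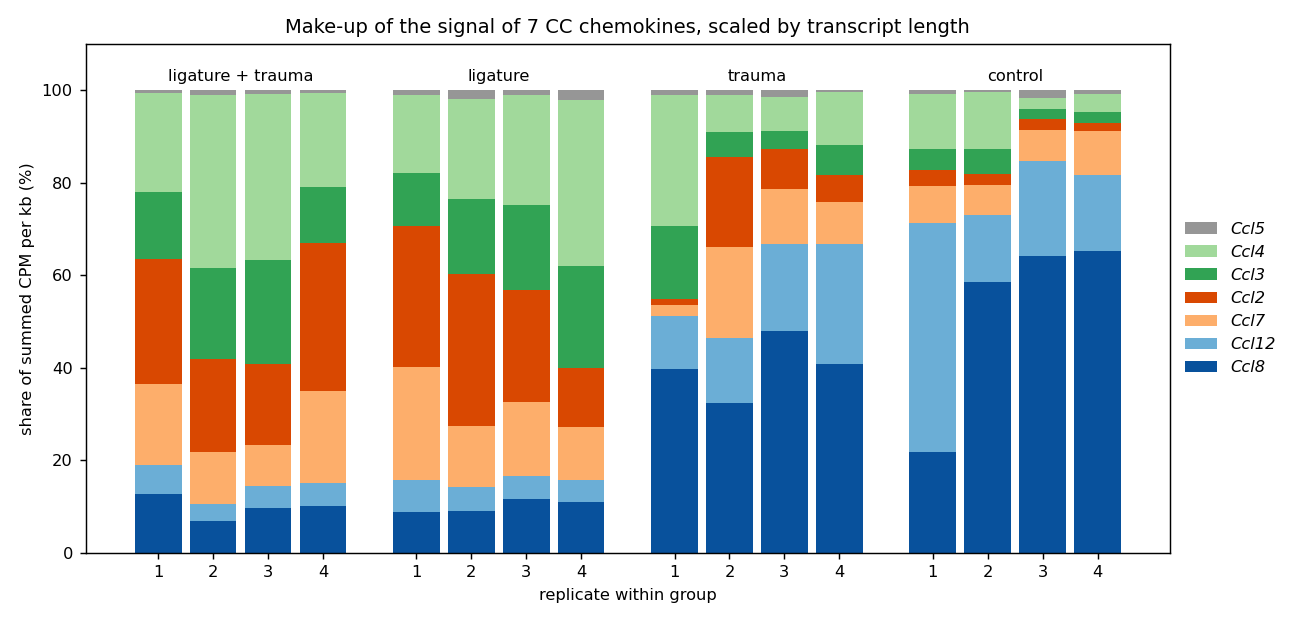
Share of each of the 7 chemokines in their summed CPM per kilobase (vertical axis, percent) in every library, grouped from left to right as ligature plus trauma, ligature, trauma and control. Ccl8 and Ccl12 (blue) make up 10.5% to 19% of the bar in the 8 libraries with a ligature, 46.5% to 66.8% under trauma and 71.4% to 84.8% in controls.

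Shares within a library do not depend on how libraries are scaled to each other. Ccl8 and Ccl12 together held 14.8 ± 3.47% of the length-scaled signal of the 7 chemokines in LiTra (range 10.5 to 19%), 15.5 ± 0.991% in Li (14.2 to 16.5%), 57.8 ± 10.5% in Tra (46.5 to 66.8%) and 77.7 ± 6.52% in Co (71.4 to 84.8%; SD, n = 4 each). Trauma lay between the ligature groups and control with no overlap on either side. Ccl2 alone held 24.2 ± 6.58% in LiTra, 25.1 ± 9.01% in Li, 8.86 ± 7.76% in Tra and 2.45 ± 0.649% in Co. The pair Ccl8 and Ccl12 was chosen for this summary after the values were seen, so it is given without a test.

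Ccl2 and Ccl12, ligands of the same receptor, were also set against each other as counts within a library. The ratio of Ccl2 to Ccl12 was 8.68, 11.7, 7.57 and 12.8 in LiTra and 8.98, 12.9, 9.99 and 5.48 in Li. It was 0.218, 2.85, 0.942 and 0.47 in Tra and 0.137, 0.331, 0.235 and 0.217 in Co. Of the 3 length-shifted libraries, LiTra 2 and LiTra 3 lay within the range of the other 5 libraries with a ligature and Li 2 just above it. Tra 1 alone among the trauma libraries lay within the control range.

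**Figure D4:**
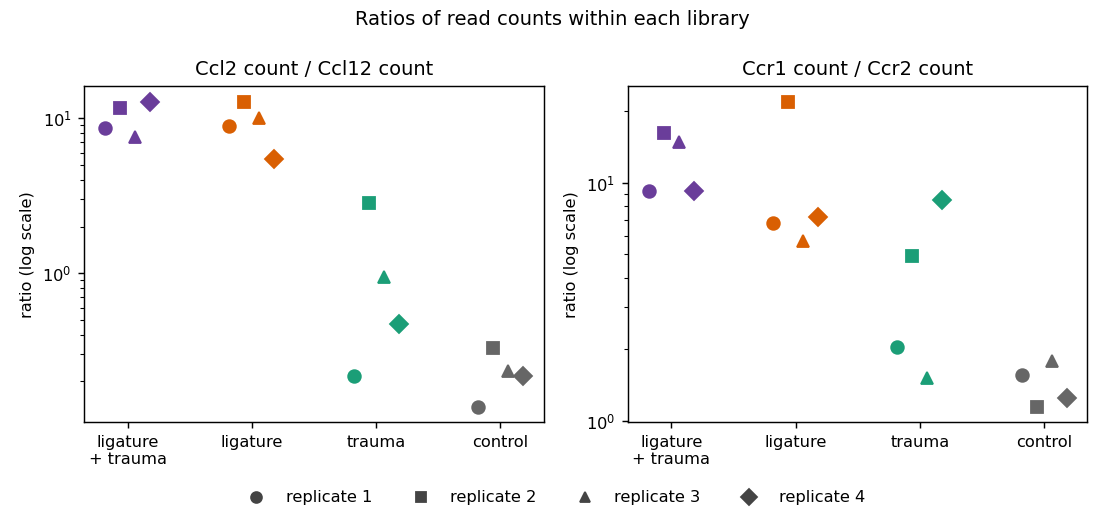
Ratio of Ccl2 to Ccl12 counts (left) and of Ccr1 to Ccr2 counts (right) in each library, on log axes, with groups from left to right ligature plus trauma, ligature, trauma and control. For Ccl2 to Ccl12 the 8 libraries with a ligature lie between 5.48 and 12.9 and the controls between 0.137 and 0.331.

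Of 14 other CC chemokines, 12 were tested, and 3 were called in LiTra and in Li against Co, where 12.5% and 10.7% of all genes were called. Ccl9 and Ccl6, which act on Ccr1 in mice, rose in both ligature groups. Ccl9 averaged 480 ± 150 CPM in LiTra, 493 ± 73.2 in Li, 73.7 ± 43.8 in Tra and 47.3 ± 22 in Co, with log2 fold changes of 3.34 ± 0.45 in LiTra (edgeR adjusted p = 0.000761) and 3.38 ± 0.46 in Li (adjusted p = 0.000463) against Co. Ccl6 rose by 2.44 ± 0.52 in LiTra (adjusted p = 0.00894; in the 13 libraries 1.15, adjusted p = 0.153) and by 1.69 ± 0.51 in Li (adjusted p = 0.045). Ccl21a, which guides dendritic cells and T cells into lymphatic vessels, fell in both. It averaged 0.526 ± 0.911 CPM in LiTra, 0.0733 ± 0.0567 in Li, 85.1 ± 65.3 in Tra and 18 ± 16.8 in Co, with log2 fold changes of -5.04 ± 1.23 in LiTra (adjusted p = 0.0167; in the 13 libraries -4.21, adjusted p = 0.156) and -7.90 ± 1.47 in Li (adjusted p = 0.00342). Ccl21a has near-identical copies in the mouse genome, so its reads may be shared among them. Its mean, like the mean sum of the oral epithelium markers given below, was highest in Tra and next in Co. Between LiTra and Li the order of the Ccl21a mean and of that sum differed, and a link was not tested. The other 9 of the 12 tested, among them Ccl11, Ccl20 and Ccl22, did not pass by edgeR in either comparison, and Ccl1 and Ccl26 did not pass the filter.

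Among 12 other CC and atypical receptors, of which 10 were tested, 5 rose in LiTra and 4 in Li, and none fell, beside 6.83% and 5.88% of all genes called higher. Ackr1, which carries chemokines across the walls of small veins, averaged 93 ± 32 CPM in LiTra, 119 ± 76.6 in Li, 20.7 ± 12 in Tra and 7.26 ± 2.42 in Co. Its log2 fold change was 3.68 ± 0.54 in LiTra (edgeR adjusted p = 0.00103) and 4.03 ± 0.54 in Li (adjusted p = 0.000465). Ccr7, the receptor of Ccl19 and Ccl21, rose by 2.82 ± 0.50 in LiTra (adjusted p = 0.00299; in the 13 libraries 2.02, adjusted p = 0.0433) and 3.51 ± 0.52 in Li (adjusted p = 0.000832). Ccr3, a receptor of eosinophils, rose by 1.56 ± 0.28 and 1.90 ± 0.28, and the scavenger Ackr4 by 1.15 ± 0.23 and 1.33 ± 0.24, in LiTra and in Li. Ccrl2, a receptor-like protein that binds chemerin, rose in LiTra (2.17 ± 0.59; adjusted p = 0.0274), with 0.59 in the 13 libraries (adjusted p = 0.564), where Ackr4 also missed the threshold in LiTra (adjusted p = 0.0541).

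**Figure D5:**
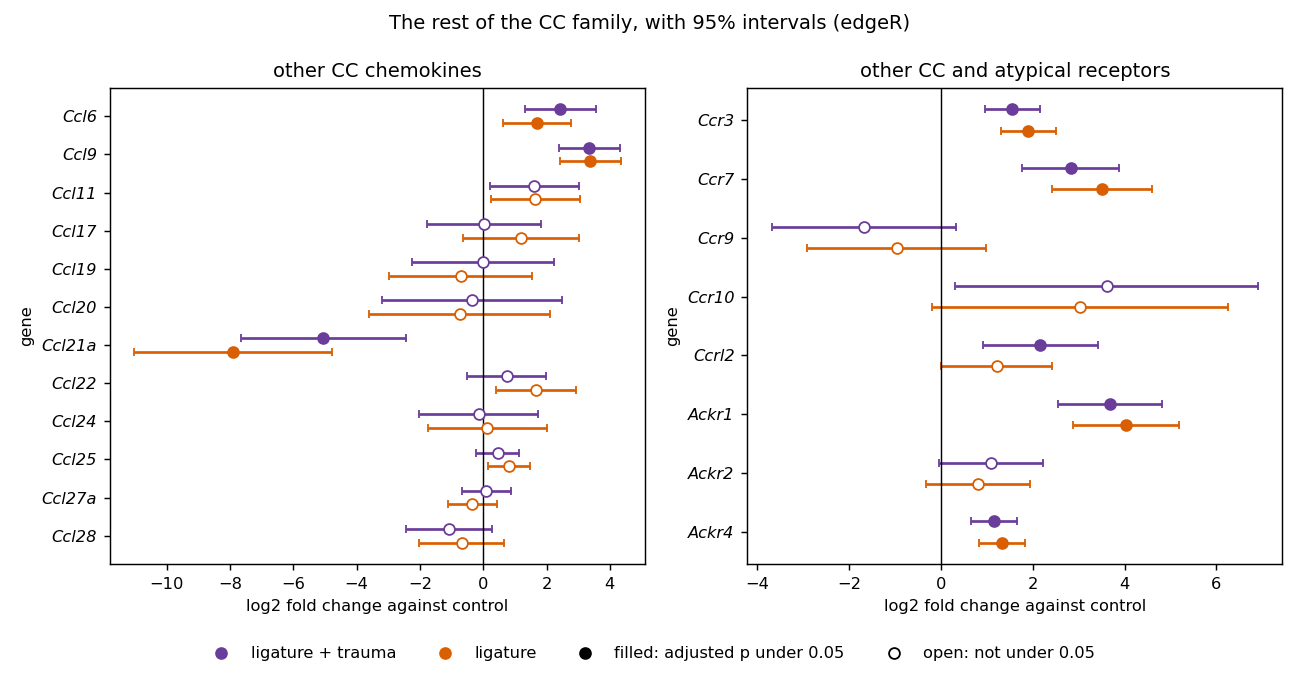
Fitted log2 fold changes against control (horizontal axis) with 95% intervals of other CC chemokines (left) and a selection of other CC and atypical receptors (right), in ligature plus trauma (purple, upper point) and ligature (orange, lower point). Filled points have an edgeR adjusted p under 0.05, namely Ccl6, Ccl9, Ccl21a, Ccr3, Ccr7, Ackr1 and Ackr4 in both and Ccrl2 in ligature plus trauma. Ccr4 is not drawn, since its 4 ligature libraries are listed at 0.

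Cytokines known to switch on these chemokines and members of the NF-kappa-B pathway were read as a list of 15 genes, 14 of them tested. Of these, 4 rose in LiTra and 4 in Li against Co, and none fell, beside 6.83% and 5.88% of all genes called higher. Il6, an inflammatory cytokine, averaged 176 ± 118 CPM in LiTra, 61.3 ± 18.1 in Li, 17.7 ± 26.3 in Tra and 0.0893 ± 0.148 in Co. Il1b, which induces Ccl2 in fibroblasts, averaged 760 ± 511 CPM in LiTra, 443 ± 108 in Li, 295 ± 154 in Tra and 68.3 ± 38.5 in Co, with log2 fold changes of 3.48 ± 0.56 in LiTra (edgeR adjusted p = 0.00172) and 2.70 ± 0.54 in Li (adjusted p = 0.00538). In the 13 libraries the value of Il1b in LiTra was 2.29 (adjusted p = 0.0316). Nfkbia, the inhibitor that NF-kappa-B itself switches on, rose by 1.13 ± 0.31 in LiTra and 1.16 ± 0.31 in Li, and in the 13 libraries missed the threshold in both (adjusted p = 0.189 and 0.0584). Il17a rose in LiTra (4.85 ± 1.31; adjusted p = 0.0273; no longer called in the 13 libraries). Tnf had log2 fold changes of 0.26 ± 0.56 in LiTra and 0.04 ± 0.56 in Li and did not pass. The median log2 fold change of the list was 0.53 in LiTra, against -0.08 for all genes, and 0.71 in Li, against -0.05.

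Of 17 genes for signalling downstream of chemokine receptors, 6 rose in LiTra and the same number in Li, and none fell. Of all genes, 6.83% and 5.88% were called higher in LiTra and in Li. They were Rac2, Vav1, Itgb2, Pik3r5, Fgr and Lyn, which are expressed mainly in blood cells. In the 13 libraries 5 rose in LiTra, without Lyn, and 7 in Li, with Plcb2 added. Rac2, a GTPase of leukocyte movement, averaged 133 ± 18.7 CPM in LiTra, 151 ± 45.4 in Li, 37.7 ± 15.9 in Tra and 24.5 ± 10.2 in Co, and rose by 2.44 ± 0.37 in LiTra (edgeR adjusted p = 0.00128) and by 2.62 ± 0.37 in Li (adjusted p = 0.00066). The beta 2 integrin Itgb2, which binds leukocytes to the vessel wall, rose by 1.96 ± 0.34 and 2.34 ± 0.35. The remaining 11 genes, such as the widely expressed Gnai2, Gnb1 and Arrb2, did not pass. Under trauma alone no gene of the lists of other CC chemokines, other receptors, inducers or signalling passed by edgeR. Those with an unadjusted p under 0.05 numbered 2, 1, 4 and 3, and DESeq2 called Il1b of the inducers (adjusted p = 0.00902).

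Markers of the cells that carry or answer these genes moved too. For the counts in this paragraph and the next, 6.83% of all genes were called higher and 5.62% lower in LiTra. In Li these shares were 5.88% and 4.78%. Of 12 classical monocyte markers, 3 rose in LiTra, among them S100a4 and Itgam, and 5 in Li, among them S100a4, Itgam, Csf1r and Ms4a4c, with 2 and 4 called in the 13 libraries. Their summed level was 795 to 1180 CPM in LiTra, 850 to 1069 in Li, 425 to 762 in Tra and 503 to 791 in Co. Defining genes of the list did not pass by edgeR: Ly6c2 had log2 fold changes of 1.65 ± 0.65 in LiTra and 0.71 ± 0.63 in Li, and F13a1 of -0.77 ± 0.39 and -1.18 ± 0.39. DESeq2 called Ly6c2 higher in LiTra and F13a1 lower in Li. Of 8 nonclassical monocyte markers none passed by edgeR or DESeq2, with 1 at an unadjusted p under 0.05 in LiTra and 2 in Li, and their sum was 33.1 to 72.4 CPM in LiTra, 14.2 to 47 in Li, 25.7 to 42.8 in Tra and 19.3 to 61.6 in Co. Of 12 macrophage markers 2 rose (Cd68 and Lyve1) and 4 fell (Cd163, Mrc1, Mertk and Adgre1) in both ligature groups, Lyve1 and Adgre1 no longer in the 13 libraries, with a sum of 625 to 930 CPM in LiTra, 563 to 1254 in Li, 536 to 1041 in Tra and 508 to 774 in Co. Cd163, a scavenger receptor of resident macrophages, averaged 3.12 ± 1.18 CPM in LiTra, 3.65 ± 1.68 in Li, 18.5 ± 8.94 in Tra and 25.9 ± 3.37 in Co.

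Cells other than monocytes also carry these genes. Of 12 neutrophil markers 11 rose in LiTra and 8 in Li (4 and 7 in the 13 libraries), and their sum was 818 to 4295 CPM in LiTra, 984 to 1710 in Li, 734 to 4851 in Tra and 216 to 782 in Co. Under trauma it was highest in Tra 2 and lowest in Tra 1, as were Ccl2 and Ccl7, whereas Ccl3 and Ccl4 were highest in Tra 1. Of 12 osteoclast markers 10 rose in LiTra and 11 in Li, with sums of 10515 to 13597 CPM in LiTra, 11337 to 16320 in Li, 1414 to 4268 in Tra and 1207 to 4208 in Co, a gap between groups like that of Ccr1. Of 10 endothelial markers 7 rose in LiTra and 8 in Li (5 and 8 in the 13 libraries). Their sums were 875 to 1417 CPM in LiTra, 951 to 1635 in Li, 212 to 478 in Tra and 217 to 377 in Co. Oral epithelium markers fell, 9 of 10 in LiTra and 7 of 10 in Li (0 and 4 in the 13 libraries), with sums of 713 to 2422 CPM in LiTra, 1363 to 2094 in Li, 4120 to 27555 in Tra and 1282 to 11570 in Co. Of 12 ligament fibroblast markers 1 rose and 3 fell in LiTra and 1 rose and 4 fell in Li. In the 13 libraries 2 of them fell in LiTra and 3 in Li. The sums of these markers were 44512 to 64250 CPM in LiTra, 35372 to 65771 in Li, 45092 to 93938 in Tra and 40724 to 97507 in Co. Of 10 skeletal muscle markers none passed by edgeR in either comparison, with 0 at an unadjusted p under 0.05 in LiTra and 2 in Li, where DESeq2 called Acta1, and their sum reached 1197 CPM in Li 2. Under trauma no gene of these marker lists passed by edgeR, with 10 of the 12 neutrophil markers at an unadjusted p under 0.05, of which DESeq2 called 6. The part of these cell types in the chemokine and receptor results was not tested.

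The genes whose profile over the 16 libraries was most like that of 3 members were found by the mean absolute difference of centred log2 CPM, among 11090 well-expressed genes (11091 for Ccl5). For Ccl2 the closest were Bdkrb1, a kinin receptor (0.73 log2 units), Ackr1 (0.82), Timp1, a protease inhibitor (0.82), S100a4 (0.88) and Ccl7 (0.91). For Ccr2 they were Kitl, the ligand of the receptor Kit (0.27), Anxa11 (0.28), Dmxl1 (0.33), Kctd12b (0.33) and Jak1 (0.35), and for Ccl5 Gmfg (0.45), Tmsb4x (0.45), Rangrf (0.48), Atp5j2 (0.49) and Ctla2b (0.49). Even the nearest profile to Ccl2 was off by a wider margin than those of the other 2. The measure is not scaled to how much a gene varies between libraries, so these margins do not compare how closely patterns match. Ccl2 ran from 2.87 to 319 CPM, Ccl5 from 0.459 to 10.9 and Ccr2 from 12.4 to 59.2. The length-shifted libraries were among the 16, and the part of transcript length in these likenesses was not tested.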

How the data were processed

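Total RNA was isolated by TRIzol with a Direct-zol kit, and libraries were made from its poly(A) fraction, per the labels' protocols. The authors deposited raw gene-level read counts: whole numbers for 55359 genes in each of the 16 libraries. The submitters' processing notes list, with no role or order, HISAT2 2.2.1 and StringTie 2.1.7, Trimmomatic 0.39 and FastQC 0.11.9, DESeq2 1.32.0, and GRCm39 as build. Which program counted the reads, with what annotation release and strand setting, is not given in the sources used here. Library totals ran from 58458102 to 77468584.

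From these counts edgeR 4.0.16 (R 4.3.3) was run with trimmed-mean (TMM) scaling, its expression filter (minimum count 10) and the quasi-likelihood test, all 4 groups in 1 fit with 12 residual degrees of freedom and no covariate. P-values were adjusted (Benjamini-Hochberg) over all 20953 genes kept, and a gene was called at an adjusted p under 0.05. Levels are TMM-scaled CPM, and per-kilobase values use the longest transcript of the gene (GENCODE M21, GRCm38, used for symbols and lengths only). The tests were checked on simulated data for Li against Co, with 50 changed genes per fold size. They recovered 16% of 2-fold and 82% of 4-fold rises, and 82% of 8-fold and 96% of 16-fold falls. Of the calls, 5.48% were false. Most 2-fold changes were thus missed.

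Alternatives were DESeq2 1.42.0, its size factors in edgeR, no filter, fits of the 2 compared groups alone, a minimum of 50 counts in 4 libraries, a replicate block, limma-voom (limma 3.58.1) with sample weights, 13 libraries, and each library left out. Removal of the length trend (spline, 5 degrees of freedom) was added after seeing the data. The members, gene lists and tests were chosen with earlier results of these data known. From each list up to 4 genes with the lowest p in a comparison were named, with defining markers, genes from counts of 5 or fewer and genes picked after their values were seen. Some genes of the lists are counted but not reported by name here.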

Additional observations from a re-analysis of the deposited data

How the results depend on the processing

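When each library was left out in turn, 5 to 5 of the 9 genes were called in LiTra against Co and 4 to 5 in Li against Co. In Tra against Co, LiTra against Li and the interaction 0 to 0 were called. In LiTra against Tra the count of 3 ranged from 1 to 3, with 1 (Ccr1) without Tra 1, 3 or 4 or LiTra 2 or 3. The same count was 1 in the fit of the compared groups only, 1 with limma-voom and 1 in the 13 libraries, and DESeq2 called 2 members in Tra against Co. The cause was not tested.

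Reversed signs all concerned values that had not passed. In the 13 libraries LiTra against Li gave -0.27 for Ccl3 and -0.16 for Ccl4, and LiTra against Tra gave -0.76 for Ccl5. The interaction of Ccl8 was 0.089 and that of Ccr2 -0.013 with limma-voom, and that of Ccl8 0.024 with the length trend removed. With 1 library left out, log2 fold changes spanned -0.06 to 0.48 for Ccr2 in Li against Co, -0.425 to 0.092 for Ccl12 in LiTra against Co, -0.91 to 0.53 for Ccl5 and -0.028 to 1.12 for Ccl2 in LiTra against Li. Interactions spanned -0.37 to 0.41 (Ccl8), -0.80 to 0.014 (Ccl12) and -0.17 to 0.41 (Ccr2).

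Deviations of same-numbered libraries from their group means had correlations of -0.157 to 0.215 (24 pairs). The labels state no pairing, and without differently numbered pairs for comparison these values cannot exclude one. With the replicate block the calls in LiTra against Tra were Ccr1 and Ccl2 (2.47; edgeR adjusted p = 0.0448), without Ccl3 (2.19; 0.0601) and Ccl4 (2.26; 0.0732). With the length trend removed Ccl8 (-1.54; edgeR adjusted p = 0.0284) and Ccl12 (-1.45; 0.0413) passed as lower in LiTra against Tra, and Ccl4 no longer passed (1.89; 0.0587). DESeq2 also called Ccl2 there (1.99; adjusted p = 0.0486).

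Over all genes DESeq2 called 3698 in Li against Co (edgeR 2234), 4263 in LiTra against Co (2609) and 2096 in LiTra against Tra (1149). With 1 library left out, edgeR called 1430 to 2125, 1022 to 4332 and 565 to 1525. The fit of compared groups called 1369 in Li against Co, and the 13 libraries 743 in LiTra against Co, 403 in LiTra against Tra and 2 in the interaction.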
